A study of Mus musculus with 6 samples.

Results

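Aminoacyl-tRNA synthetases are the enzymes that join each amino acid to its transfer RNA (tRNA), the step that supplies the ribosome with charged tRNA. The set described here holds the 42 protein-coding genes, of 54532 genes in the count table, whose deposited description contains the words tRNA synthetase. They were divided by the description or by a symbol ending in 2 into 21 cytosolic enzymes, 17 mitochondrial enzymes and 4 accessory proteins. Tarsl2, whose description names no mitochondrion, was kept with the cytosolic enzymes. The accessory genes are Aimp1 and Aimp2, which encode scaffold proteins, and Aarsd1 and Prorsd1, which share a domain with a synthetase. Gars and Kars are counted as cytosolic, although each of these genes is known to encode both a cytosolic and a mitochondrial form.

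The libraries came from purified splenic CD4+ T cells of C57BL/6 mice, held for 72 h in T helper 1 (Th1) polarising culture. There were 3 libraries with idelalisib, a drug that blocks the delta form of phosphoinositide 3-kinase (PI3K) found in leukocytes, and 3 control libraries without it. Both groups thus share strain, tissue, time and Th1 polarisation. The sources used here give no idelalisib dose, no solvent for the control cultures and no age for the mice. The labels call the replicates biological but do not say whether they came from separate mice, so p-values measure the spread between these libraries, which may be technical.

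In mammals most amino acids have separate nuclear genes for a cytosolic and a mitochondrial synthetase. The cytosolic enzymes serve translation on cytosolic ribosomes, and several of them sit with scaffold proteins in a multi-synthetase complex. The mitochondrial enzymes charge the tRNAs that translate the few respiratory chain proteins encoded in mitochondrial DNA. Many cytosolic synthetase genes are known targets of ATF4, a transcription factor whose translation increases when amino acids are short and when the kinase complex mTORC1, downstream of PI3K, is active. Activated T cells are known to raise both amino acid uptake and translation.

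Promoter sequence is shown for the members that carry a motif tied to ATF4, taken from the RefSeq promoter table (GRCm38.p6). The table matched 31 of the 42 members and gives 250 bases before and 50 bases after each start. The motif shown is TGATGNAA, searched on both strands, the core of the element bound by ATF4 together with C/EBP proteins. It was present in 5 of 13 matched cytosolic genes and in 0 of 14 matched mitochondrial genes, against 4.51% of 27025 genes with a promoter of this length. The stretches below show the motif in these 5 genes, with motif letters in capitals and the strand of the gene read 5′ to 3′. A match is a description of these letters and no evidence of binding.
Tars, chr15:11399659-11399738, minus strand, upstream of the start: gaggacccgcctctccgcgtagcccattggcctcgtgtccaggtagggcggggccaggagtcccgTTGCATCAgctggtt
Gars, chr6:55037921-55038000, plus strand, upstream of the start: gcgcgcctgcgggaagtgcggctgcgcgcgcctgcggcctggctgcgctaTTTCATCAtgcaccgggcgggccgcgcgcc
Aars, chr8:111033682-111033841, plus strand, upstream of the start: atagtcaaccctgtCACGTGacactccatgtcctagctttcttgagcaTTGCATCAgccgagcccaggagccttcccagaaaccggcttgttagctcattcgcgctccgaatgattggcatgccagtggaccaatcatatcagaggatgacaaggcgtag
Iars, chr13:49682126-49682155, plus strand, around the start: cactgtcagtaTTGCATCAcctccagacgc
Yars, chr4:129189895-129189924, plus strand, around the start: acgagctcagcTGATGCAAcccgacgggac

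In Tars the motif began 15 bases upstream of the start, in Gars 30 bases and in Aars 112 bases upstream. In Iars it began 7 bases and in Yars 3 bases downstream of the start. Aars held a further match 9 bases downstream. The capitals CACGTG in the Aars stretch mark an E-box, the motif bound by MYC and related factors. An E-box was found in 4 of 13 matched cytosolic genes and in 1 of 14 mitochondrial ones, against 8.09% of all genes in the table. Of the genes that carry TGATGNAA, Tars, Gars, Iars and Yars were lower with idelalisib and Aars was not called.

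Cytosolic enzymes were measured at higher levels than mitochondrial ones in both groups. Read counts were scaled to CPM on library sizes adjusted with trimmed mean of M-values (TMM) factors, and divided by the deposited gene length for levels per kilobase (RPKM). Median RPKM of the cytosolic enzymes was 38.3 in idelalisib and 41.8 in control libraries, and that of the mitochondrial enzymes was 5.44 in idelalisib and 6.18 in control libraries. Among cytosolic enzymes the mean level ranged from 2.31 RPKM for Tarsl2 to 107 RPKM for Nars with idelalisib, and from 2.03 to 135.5 RPKM for the same genes in control. Among mitochondrial enzymes it ranged from 1.41 RPKM for Ears2 to 16.0 RPKM for Tars2 with idelalisib, and from 0.991 to 16.9 RPKM for these genes in control. The deposited length equals the summed exons of the GENCODE M21 annotation for 39 members. For Nars, Lars and Hars it is shorter, so their RPKM would be lower on the M21 length.

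**Figure D1:**
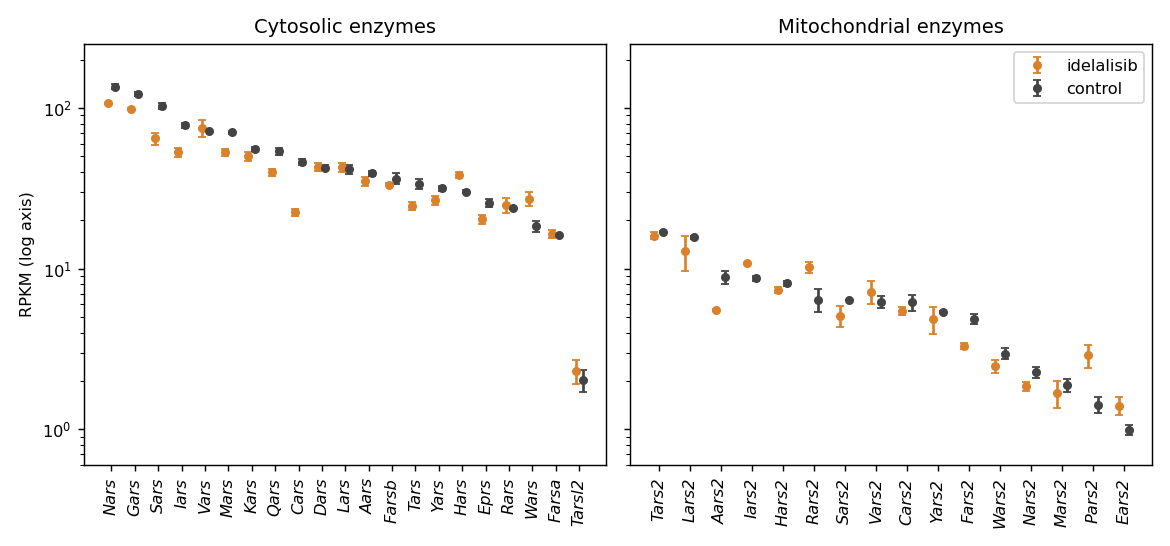
Mean RPKM with SD (n = 3 per group) of cytosolic and mitochondrial enzyme genes, on a log axis, with idelalisib in orange to the left of control in grey. Cytosolic enzymes apart from Tarsl2 lie above nearly all mitochondrial ones in both groups, and the shift with treatment is small beside the differences between genes.

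All 42 members passed the count filter and were tested with edgeR's quasi-likelihood test, with p-values adjusted over all 14530 genes tested. At an adjusted p under 0.05, 14 members were lower and 7 were higher with idelalisib, and 21 were not called. The share called, 21 of 42, was close to the 44.6% of all genes tested, so the number of calls does not set the enzymes apart. Among the 11926 protein-coding genes tested it was 46.4%, with 21.8% lower and 24.6% higher. In direction, 22.4% of all genes tested were called lower and 22.2% higher, against 33.3% and 16.7% of the members. The CPM ranges of the groups did not overlap for 30 members, or 71.4%, against 54.6% of all genes tested.

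The calls are given by compartment, and the difference between compartments was not tested. Of the 21 cytosolic enzymes, 10 were lower, 2 were higher and 9 were not called. Of the 17 mitochondrial enzymes, 2 were lower, 5 were higher and 10 were not called. The medians did not show this. The median log2 fold change was -0.16 for the cytosolic and -0.16 for the mitochondrial enzymes, beside 0.01 for all genes tested. Scaled by library size alone, the median of all genes was 0.16 and 10 members were lower and 8 higher. Of called members 44.4% were then higher, against 33.3% with TMM factors. Of all 14530 genes tested, 4832 were called higher and 2219 lower at this scaling, against 3223 and 3256 with TMM factors.

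**Figure D2:**
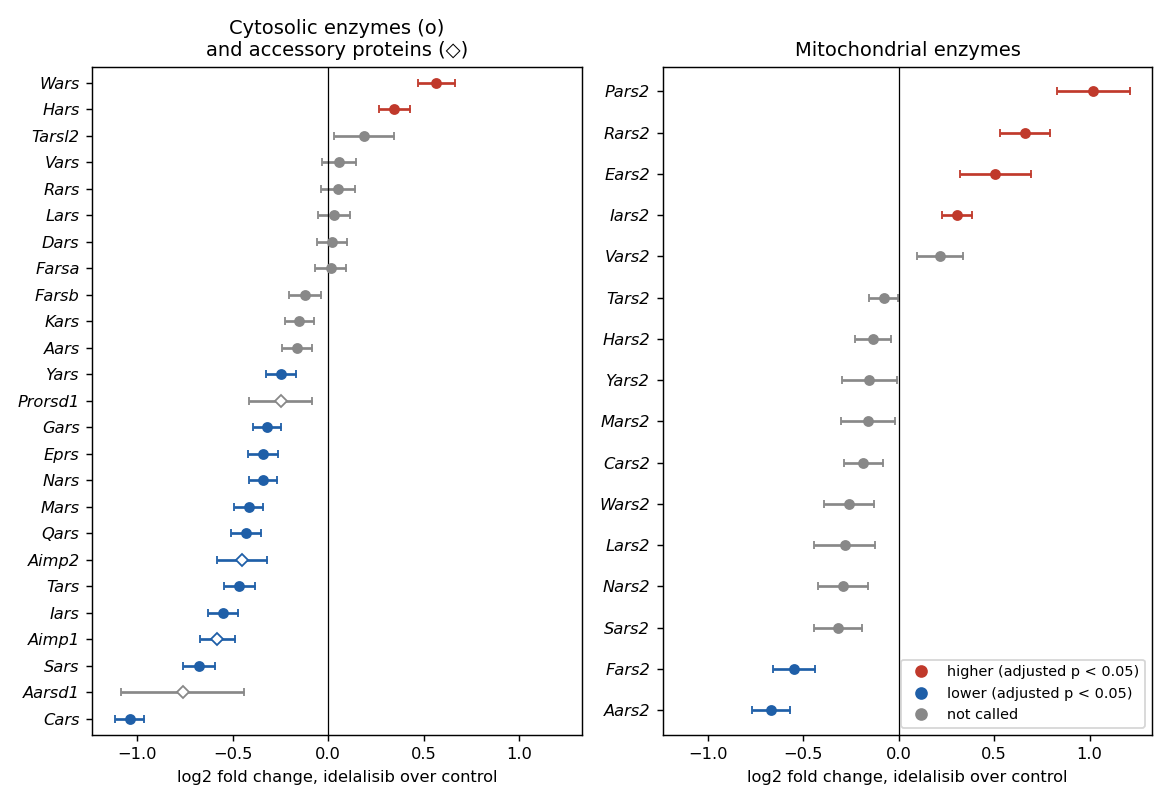
Log2 fold change, idelalisib over control, of 41 members with its standard error, from edgeR on 3 libraries per group. Circles are enzymes and open diamonds are accessory proteins, coloured by whether they were called higher, lower or not called. Cytosolic calls lie mostly left of 0, from Cars at -1.04, while the mitochondrial calls right of 0 include Pars2 at 1.02.

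The cytosolic gene with the largest fall was Cars, which encodes cysteinyl-tRNA synthetase (ENSMUSG00000010755, mm10 chromosome 7, 143557230 to 143600090). Its level was 147, 140.2 and 156 CPM in the idelalisib libraries and 290.4, 309 and 313 CPM in the control libraries. Every idelalisib library thus lay far below every control library. Cars fell by 1.04 on the log2 scale (SE 0.08, adjusted p = 2.84e-07, edgeR), so that it was 2.06-fold lower, and it was called in all 16 alternatives that were run.

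Sars encodes seryl-tRNA synthetase (chromosome 3, 108424865 to 108445209). It had 309, 325 and 363 CPM with idelalisib and 508, 553 and 534 CPM in control, with a wide gap between the groups. Its log2 fold change was -0.68 (SE 0.08, adjusted p = 2.15e-05, edgeR). Iars, the isoleucine enzyme (chromosome 13, 49682100 to 49734267), had 275, 299 and 265 CPM with idelalisib and 397, 421 and 412 CPM in control. Its idelalisib libraries were likewise all lower, with a log2 fold change of -0.55 (SE 0.08, adjusted p = 7.36e-05, edgeR). About 7.15% of the 50-base words of its transcripts also occur in other genes.

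Tars, the threonine enzyme, had 139, 154 and 141 CPM with idelalisib and 187, 198 and 214 CPM in control, a log2 fold change of -0.47 (SE 0.08, adjusted p = 0.00046, edgeR). Qars, the glutamine enzyme, had 249, 261 and 274 CPM with idelalisib and 333, 352 and 372 CPM in control, a log2 fold change of -0.43 (SE 0.08, adjusted p = 0.000562, edgeR). Mars, which charges the initiator tRNA as well as the elongator tRNA with methionine, had 172, 183 and 188 CPM with idelalisib and 239, 239 and 248 CPM in control. It fell by 0.42 on the log2 scale (SE 0.08, adjusted p = 0.000535, edgeR). In all of these genes the lowest control library stayed above the highest idelalisib library. Exons of Mars overlap those of Ddit3 on the opposite strand by 68 bases.

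The other 4 lower cytosolic genes changed by less. Nars, for asparagine, averaged 281 ± 2.38 CPM with idelalisib and 357 ± 13.2 CPM in control (SD, n = 3 each), a log2 fold change of -0.34. Eprs encodes a single protein that charges both glutamate and proline, and averaged 369 ± 23.1 CPM with idelalisib and 467 ± 26.0 CPM in control, a log2 fold change of -0.34. Gars, for glycine, averaged 306 ± 4.91 CPM with idelalisib and 381 ± 12.9 CPM in control, a log2 fold change of -0.32. Yars, for tyrosine, averaged 158 ± 10.2 CPM with idelalisib and 188 ± 6.93 CPM in control, a log2 fold change of -0.25. Their edgeR adjusted p was 0.0018, 0.00342, 0.00292 and 0.0209 in this order. Scaled by library size alone, Eprs, Gars and Yars lost their calls (adjusted p = 0.0723, 0.0753 and 0.345). Yars also lost it without control replicate 2, control replicate 3 or idelalisib replicate 1, with adjusted p of 0.0735, 0.0918 and 0.0646.

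Wars and Hars were the 2 cytosolic enzymes that were higher. Wars, the tryptophan enzyme (ENSMUSG00000021266, chromosome 12, 108860030 to 108894174), is known to be induced by interferon gamma as well as by ATF4. It had 83.7, 103 and 95.1 CPM with idelalisib and 60.2, 69.4 and 60.7 CPM in control, so the groups were apart. Its log2 fold change was 0.56 (SE 0.10, adjusted p = 0.000358, edgeR), and it was called in all 16 alternatives. The 8 interferon-induced genes set beside it were called higher as well, against 22.2% of all genes tested. When 1 library was left out, 6 to 7 of them were called higher. The transcription factor gene Irf1 changed least, with a log2 fold change of 0.24 (adjusted p = 0.0427, edgeR). The chemokine gene Cxcl10 and the guanylate-binding protein genes Gbp5 and Gbp2 had 1.21, 1.38 and 1.86. The antiviral genes Ifit1, Isg15 and Mx1 had 1.99, 2.18 and 6.07. Few reads lie behind 2 of these values: in the control libraries Mx1 had 1, 3 and 4 counts and Cxcl10 had 6, 24 and 20. Gbp2 was at 941 ± 137 CPM with idelalisib and 259 ± 20.2 CPM in control (SD, n = 3 each). Their part in the level of Wars was not tested.

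Hars, the histidine enzyme, had 73.3, 75.0 and 80.3 CPM with idelalisib and 60.8, 60.9 and 58.1 CPM in control. It was 1.27-fold higher (log2 fold change 0.35, SE 0.08, adjusted p = 0.00364, edgeR) and was called in all 16 alternatives. Its exons overlap those of the mitochondrial gene Hars2 on the opposite strand over 195 bases. Hars2 itself was at 31.5 ± 1.27 CPM with idelalisib and 34.6 ± 1.29 CPM in control and was not called.

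**Figure D3:**
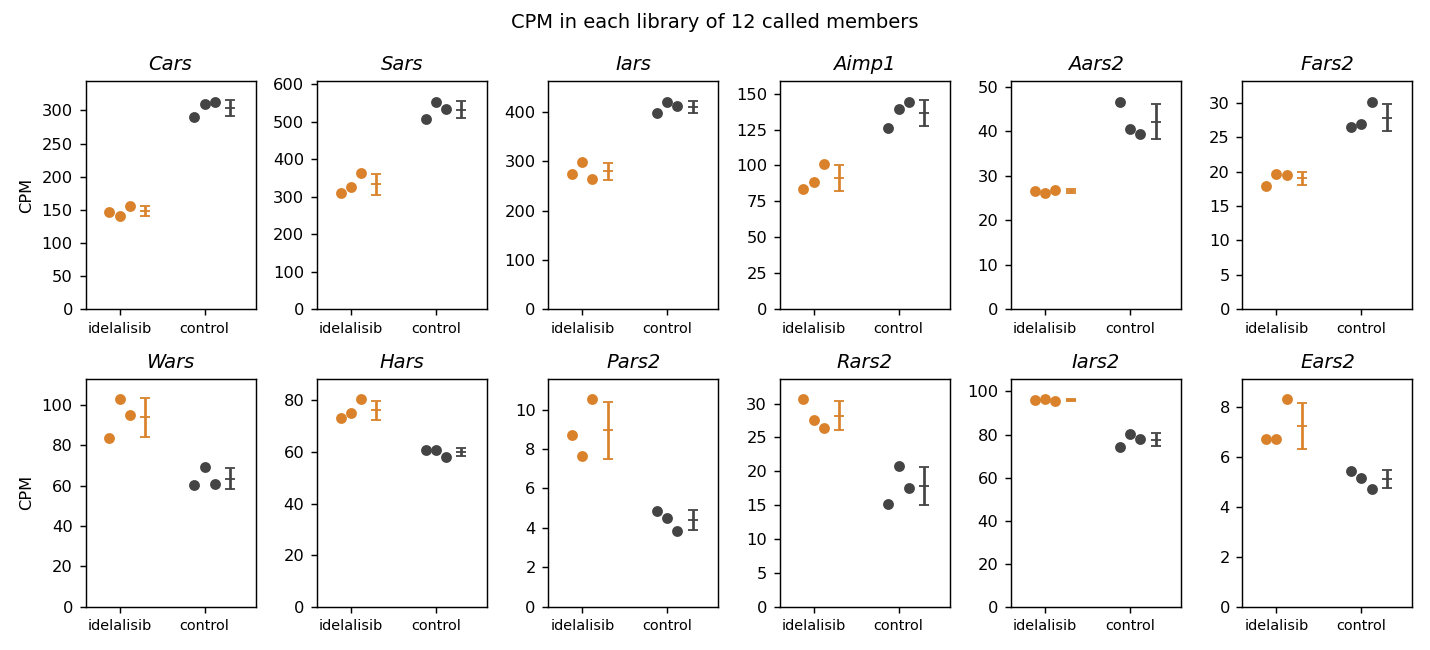
CPM in each of the 6 libraries for 12 called members, with idelalisib in orange left of control in grey, and the mean with SD (n = 3 per group) beside the points. Vertical axes start at 0 and differ between panels. In each of the 12 genes shown the libraries of the groups do not overlap.

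The remaining 9 cytosolic enzymes were not called. Aars and Kars, for alanine and lysine, came closest among them, with log2 fold changes of -0.16 (edgeR adjusted p = 0.104) and -0.15 (0.125). Aars had 318, 307 and 349 CPM with idelalisib and 352, 373 and 365 CPM in control, which are ranges that do not touch although the difference is small. Kars had 218, 214 and 239 CPM with idelalisib and 255, 248 and 242 CPM in control. Without idelalisib replicate 3 both were called lower (adjusted p = 0.0211 and 0.035). Exons of Aars share 1326 bases with Exosc6 on the same strand, which is 14.3% of their length. Farsb and Farsa, the beta and alpha subunits of the phenylalanine enzyme, had log2 fold changes of -0.12 and 0.01, and Dars, Lars, Rars, Vars and Tarsl2 lay between 0.02 and 0.19. Vars, the valine enzyme, spread widely with idelalisib, at 426, 370.0 and 470.0 CPM, against 407, 399.8 and 409.6 CPM in control.

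Among the mitochondrial enzymes, Pars2, for proline, had 8.69, 7.65 and 10.5 CPM with idelalisib and 4.88, 4.49 and 3.86 CPM in control. It was 2.03-fold higher (log2 fold change 1.02, SE 0.19, adjusted p = 0.00075, edgeR), from counts of 108 to 176 in the idelalisib libraries and 54 to 78 in the control libraries. Rars2, the mitochondrial arginine enzyme, had 30.6, 27.5 and 26.5 CPM with idelalisib and 15.1, 20.8 and 17.5 CPM in control, a log2 fold change of 0.66 (SE 0.13, adjusted p = 0.00099, edgeR). Neither gene overlapped between groups, and both were called in all 16 alternatives.

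Iars2, the mitochondrial isoleucine enzyme, had 96.0, 96.3 and 95.4 CPM with idelalisib and 74.4, 80.4 and 77.8 CPM in control, a log2 fold change of 0.31 (SE 0.08, adjusted p = 0.00584, edgeR). It missed the threshold without control replicate 1 (adjusted p = 0.0507). Exons of Rab3gap2 on the opposite strand overlap 22.9% of its exon length, and Rab3gap2 had a log2 fold change of -0.95. Ears2, for glutamate, had 6.71, 6.73 and 8.30 CPM with idelalisib and 5.44, 5.15 and 4.72 CPM in control, a log2 fold change of 0.51 (SE 0.18, adjusted p = 0.0378, edgeR). The call of Ears2 is the least firm of the set: it was lost in 7 of 16 alternatives, among them leaving out any 1 control library or idelalisib replicate 3, where adjusted p reached 0.125. It was also lost with DESeq2 (adjusted p = 0.0615) and with the replicate number as a block (0.0673).

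Aars2 and Fars2 were the mitochondrial enzymes that were lower. Aars2, for alanine (chromosome 17, 45506841 to 45520843), had 26.7, 26.1 and 26.8 CPM with idelalisib and 46.6, 40.5 and 39.4 CPM in control, a log2 fold change of -0.67 (SE 0.10, adjusted p = 0.000122, edgeR). Fars2, for phenylalanine, had 18.0, 19.6 and 19.5 CPM with idelalisib and 26.5, 26.9 and 30.2 CPM in control, a log2 fold change of -0.55 (SE 0.11, adjusted p = 0.0012, edgeR). The idelalisib libraries were below all control libraries in both genes, which were called in all 16 alternatives.

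Among the 10 mitochondrial enzymes not called, Sars2 and Nars2 came nearest to the threshold. Sars2, for serine, had 15.5, 15.4 and 19.7 CPM with idelalisib and 21.0, 21.1 and 21.1 CPM in control (log2 fold change -0.32, edgeR adjusted p = 0.0561). It was called lower without idelalisib replicate 3 (edgeR adjusted p = 0.0118). The same held with a minimum count of 50 (0.0469) and among protein-coding genes alone (0.0344). Nars2, for asparagine, had 13.6, 13.1 and 12.1 CPM with idelalisib and 16.4, 16.6 and 14.4 CPM in control (log2 fold change -0.29, adjusted p = 0.0818). Lars2, for leucine, was uneven with idelalisib, at 159.7, 166 and 102 CPM, against 177, 174 and 169 CPM in control. The low value came from idelalisib replicate 3. Lars2 was called lower when the count filter was a total of at least 1 (edgeR adjusted p = 0.0117). Wars2, Cars2, Mars2, Yars2, Hars2 and Tars2 had log2 fold changes between -0.26 and -0.08, and Vars2 had 0.21. Without idelalisib replicate 2, Mars2 was called lower and Vars2 higher (adjusted p = 0.0429 and 0.00858). Vars2 was also called higher with library size alone (edgeR adjusted p = 0.0204).

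Enzymes for the same amino acid in the 2 compartments could be compared for 16 amino acids. In 3 of them, isoleucine, glutamate and proline, the cytosolic enzyme was lower and the mitochondrial one higher, the last 2 sharing the cytosolic gene Eprs. In 6 the cytosolic enzyme alone was called lower, in 2 the cytosolic enzyme alone was called higher and in 2 the mitochondrial one alone was called higher. Alanine had a call for the mitochondrial enzyme alone, which was lower, and 2 amino acids had no call. The log2 ratio of Iars to Iars2 counts within a library, which needs no scaling, was 1.52, 1.64 and 1.47 with idelalisib and 2.42, 2.39 and 2.40 in control. For isoleucine the share of the mitochondrial transcript was thus higher in each idelalisib library than in each control library, a comparison chosen after the values were seen. Since fewer cells of a type and less RNA per cell cannot be told apart in bulk samples, such ratios describe the pooled RNA of each culture.

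**Figure D4:**
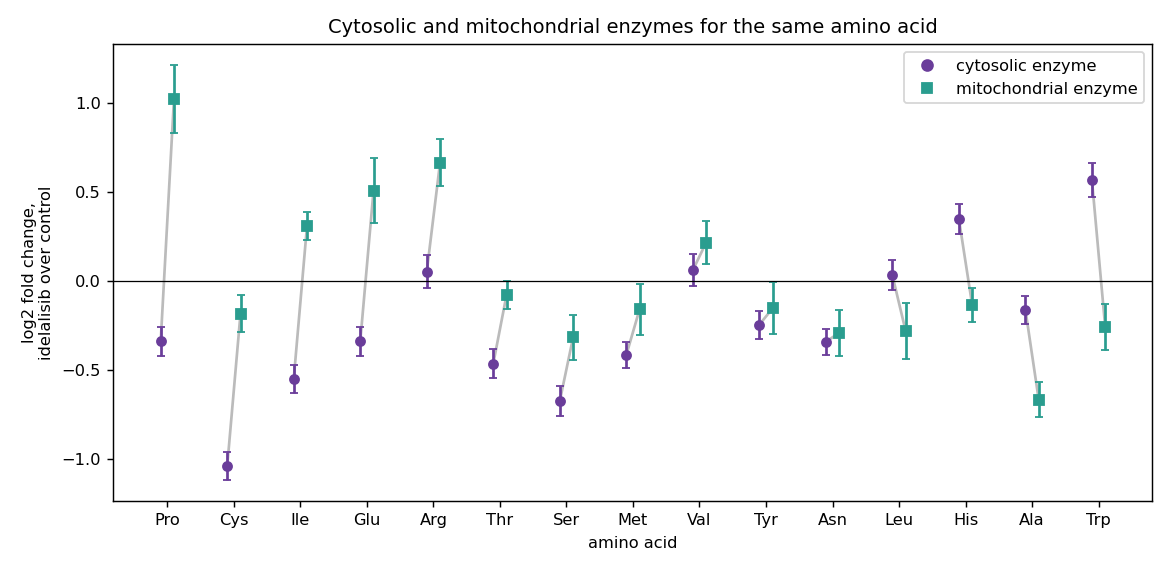
Log2 fold change with standard error (edgeR, 3 libraries per group) of the cytosolic enzyme (circles) and the mitochondrial enzyme (squares) for 15 amino acids, ordered by the difference of their within-library log2 count ratio between idelalisib and control. The cytosolic point for glutamate and for proline is the same gene, Eprs. The widest gap with the mitochondrial enzyme on top is that for proline, and tryptophan and alanine lie at the other end.

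Summed over the cytosolic enzymes, the level was 4164, 4127 and 4336.5 CPM in the idelalisib libraries and 5029, 5290.4 and 5217 CPM in the control libraries, a ratio of 0.813. These ranges were well apart. Summed over the mitochondrial enzymes it was 677, 673 and 632 CPM with idelalisib and 688, 693 and 673 CPM in control, a ratio of 0.965 with ranges that overlap. By mean CPM the largest term of this sum in both groups was the uncalled gene Lars2. It had 159.7, 166 and 102 CPM with idelalisib and 177, 174 and 169 CPM in control. In idelalisib replicate 3 Tars2 was larger, at 115 CPM. The sum thus leans on Lars2. Scaled by library size alone, the ratios were 0.905 and 1.07, so that the direction for the mitochondrial sum depends on the scaling.

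The multi-synthetase complex holds 8 of the cytosolic synthetase genes in the list used here, Dars, Eprs, Iars, Kars, Lars, Mars, Qars and Rars, with the scaffolds Aimp1, Aimp2 and Eef1e1. Of these 11 genes 6 were lower, 0 were higher and 5 were not called, with a median log2 fold change of -0.34. The share called was 54.5%, all lower, against 44.6% called and 22.4% lower among all genes tested. Across the alternatives, with the threshold of 0.01 included, 4 to 7 were called lower. Aimp1, a scaffold that is also the source of a secreted cytokine, had 83.9, 88.7 and 101 CPM with idelalisib and 126, 139 and 144 CPM in control, a log2 fold change of -0.58 (SE 0.09, adjusted p = 0.00018, edgeR). Aimp2, the scaffold on which the complex assembles, had 19.4, 17.2 and 21.4 CPM with idelalisib and 27.1, 29.99 and 22.3 CPM in control, a log2 fold change of -0.45 (SE 0.13, adjusted p = 0.0131, edgeR). Its call was lost without control replicate 2 (adjusted p = 0.0784) and with scaling by library size alone (0.0774), and 29.4% of its exon length overlaps Eif2ak1 on the opposite strand. Eef1e1, the third scaffold, was at 42.4 ± 0.441 CPM with idelalisib and 43.6 ± 1.45 CPM in control and was not called. The complex thus held called and uncalled genes side by side, with Iars at -0.55 and Rars at 0.05.

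The accessory genes Aarsd1 and Prorsd1 were not called. Aarsd1 had 19, 26 and 19 counts with idelalisib and 45, 38 and 25 counts in control, the fewest of any member. Its log2 fold change was -0.76 (SE 0.32, adjusted p = 0.0684, edgeR), and it was called without idelalisib replicate 2 (adjusted p = 0.0293). Exons of Gm27029 overlap 41.0% of its exon length on the same strand.

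By structural class, 5 of 9 class I enzymes were lower and 1 was higher, and 4 of 11 class II enzymes were lower and 1 was higher, with Eprs, which combines both classes, left out. The medians were -0.25 and -0.15 on the log2 scale. As shares, 55.6% of class I and 36.4% of class II were lower, against 22.4% of all genes tested. Higher were 11.1% and 9.09%, against 22.2%. The share called in either direction was 66.7% in class I and 45.5% in class II, against 44.6% of all genes tested. The difference between these small classes was not tested. Of 12 cytosolic synthetase genes commonly listed as ATF4 targets, 9 were lower, 1 was higher and 2 were not called, with a median of -0.34. As shares, 75.0% were lower and 8.33% higher, against 22.4% and 22.2% of all genes tested. Across the alternatives, with the stricter threshold included, 6 to 10 of the listed genes were called lower. Leaving out 1 library gave 8 to 10 lower, and with library size alone Eprs, Gars and Yars lost their calls. Aars and Lars were the listed genes with no call, and Wars was the higher one.

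Among other amino acid response genes, calls were also mostly lower. Of 27 tested regulators and non-synthetase targets of ATF4, 12 fell and 2 rose, with a median of -0.18 on the log2 scale. These shares were 44.4% lower and 7.41% higher, against 22.4% and 22.2% of all genes tested. With library size alone 4 were called higher, a scaling at which 4832 of all 14530 genes tested were called higher. Atf4 itself was at 253 ± 7.93 CPM with idelalisib and 457 ± 3.12 CPM in control, a log2 fold change of -0.85 (SE 0.07, adjusted p = 9.34e-07, edgeR). The stress regulator Nupr1 and the mTORC1 inhibitor gene Ddit4 fell by 1.44 and 1.15 on the log2 scale. Slc1a4 and Sesn2, named after their values were seen, were the higher genes, with log2 fold changes of 0.29 and 0.33 (adjusted p = 0.0402 and 0.0147, edgeR). Without control replicate 2, control replicate 3 or idelalisib replicate 1, 0 genes of the list were called higher, and with 1 library left out 9 to 14 were called lower.

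Genes of tRNA charging outside the enzymes had more calls higher than lower. Of 16 tested partners, 6 rose and 2 fell, with a median of 0.30 on the log2 scale. These shares were 37.5% higher and 12.5% lower, against 22.2% and 22.4% of all genes tested. Across the alternatives, with the threshold of 0.01 included, 4 to 9 were called higher and 2 lower. Dtd2, a deacylase that removes wrongly attached amino acids from tRNA, rose by 1.00 to 8.85 ± 0.449 CPM with idelalisib, against 4.42 ± 0.353 CPM in control. Gatb and Qrsl1 encode subunits of one mitochondrial amidotransferase that makes glutaminyl-tRNA. Gatb had a log2 fold change of 0.69 and Qrsl1 one of -0.54. Gatc, the other subunit, had one of 0.43 (adjusted p = 0.0143, edgeR), and like Qrsl1 it was named after its value was seen. Ppa2, a mitochondrial pyrophosphatase that clears the pyrophosphate released by charging, had a log2 fold change of 0.54. Mitochondria have no separate glutamine enzyme among the members.

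Enzymes that make and modify tRNA were split, with 8 higher and 9 lower of 50 tested (median log2 fold change -0.03). These shares, 16.0% higher and 18.0% lower, were below the 22.2% and 22.4% of all genes tested. With library size alone 16 were higher and 4 lower, beside 4832 higher and 2219 lower of all 14530 genes tested. Leaving out 1 library gave 3 to 12 higher and 5 to 12 lower, with 3 higher without control replicate 1, 4 higher without idelalisib replicate 1, 5 higher and 5 lower without control replicate 2, and 3 higher and 5 lower without control replicate 3. Trdmt1, a tRNA cytosine methyltransferase, and Tsen34, a tRNA splicing endonuclease subunit, had log2 fold changes of 1.12 and 0.85, and the dihydrouridine synthase gene Dus3l had -0.75. Of 24 genes for RNA polymerase III, which transcribes tRNA genes, and its factors, 4 were lower and 1 was higher. These shares, 16.7% lower and 4.17% higher, were also below those of all genes tested. With library size alone 2 of the 24 were lower and 6 higher. The subunits Polr1c and Polr1d, which are shared with RNA polymerase I, fell by 0.67 and 0.56 on the log2 scale. The TFIIIC subunit genes Gtf3c2 and Gtf3c5 had -0.38 and -0.27, and Gtf3c4 had 0.49.

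**Figure D5:**
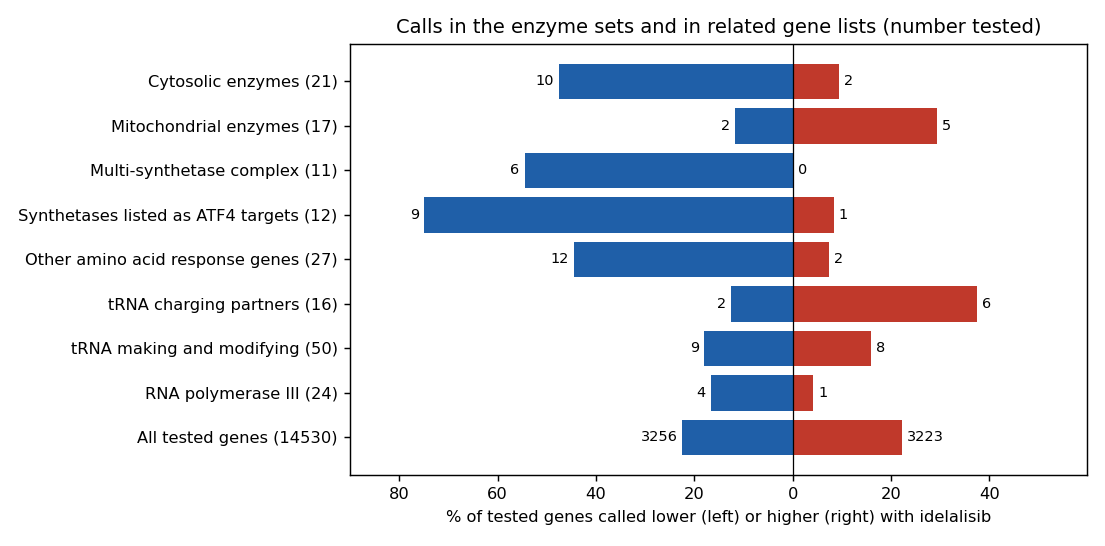
Percent of tested genes called lower (blue, left) or higher (red, right) with idelalisib in the enzyme sets and related lists, with the number of called genes at each bar and the number tested in brackets (edgeR adjusted p under 0.05). All tested genes stand at 22.4% lower and 22.2% higher. Synthetases listed as ATF4 targets are a subset of the cytosolic enzymes, and lists share genes.

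Over the whole series, total counts ranged from 13372318 to 16035945 in the idelalisib and from 14879325 to 16770452 in the control libraries. Idelalisib replicate 2 stood apart on the second principal component, and without it 16 members were lower and 8 higher. Pik3cd, the gene of the drug's target, was at 687 ± 69.0 CPM with idelalisib and 783 ± 6.32 CPM in control and was not called, which checks no label since the drug acts on the protein. Markers of CD4+ T cells were strongly present, with Cd4 at 474 ± 53.1 CPM with idelalisib and 554 ± 38.1 CPM in control, and 2 of the 8 were higher and 1 lower. Of 10 B cell markers 7 were tested and 6 were higher, and their sum was 15.5 to 19.2 CPM with idelalisib and 9.05 to 9.44 CPM in control. Of 5 granulocyte markers Ly6g and Cxcr2 were higher, with a list sum of 119.5 to 149 CPM with idelalisib and 48.7 to 51.0 CPM in control, while S100a8 and S100a9 had 0 to 3 counts in any library. Of 4 NK cell markers, Eomes, which activated T cells also express, was higher at 9.30 ± 1.88 CPM with idelalisib and 2.88 ± 0.316 CPM in control (SD, n = 3 each), while Ncr1 was at 0 counts in all 6 libraries, as was Siglech of the myeloid list. Of 2 CD8 T cell markers, Cd8a was higher at 3.40 ± 1.27 CPM with idelalisib and 1.82 ± 0.606 CPM in control. The other lists summed to 10.9 CPM or less in every library. The part of these cells in the synthetase levels was not tested.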

How the data were processed

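RNA was extracted with Trizol, and poly(A) RNA was captured, fragmented and reverse transcribed from random hexamers, per the labels' protocols. The deposited values are raw read counts per gene, made with fastp, HISAT2 2.0.5 and featureCounts 1.5.0-p3 on mm10, per the submitters' processing notes. The sources used here give no strand or multi-mapping setting. Genes were filtered with filterByExpr (minimum count 10, minimum total 15), scaled by TMM and then compared in edgeR 4.0.16 under R 4.3.3 (robust quasi-likelihood F test, group alone, Benjamini-Hochberg adjustment, threshold 0.05). Each standard error is the absolute log2 fold change over the square root of F. The method was also run on simulated counts in which only a small part of the genes changed. This is unlike these data, so that run cannot check the calls reported here. RPKM uses the gene length in bases deposited by the authors. Exon overlaps and shared 50-base words used GENCODE M21, where 39 of 42 members have the same coordinates.

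Members, gene lists, motifs and alternatives were chosen with earlier results of these data known. All members may be named; from each list, the 3 called genes with the largest change averaging at least 1 CPM (all where 5 or fewer were called), with the whole complex and interferon list. Of these, 1 member and 1 interferon gene are not reported here. Alternatives were RLE, upper-quartile and no scaling factors, DESeq2 1.42.0, limma-voom (limma 3.58.1), totals of at least 1 or minimum counts of 50, protein-coding genes alone, non-robust dispersion, a replicate block, an adjusted p under 0.01 and leaving out each library.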

Additional observations from a re-analysis of the deposited data

How the results depend on the processing

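Of 671 refitted values of the 42 members, 631 kept direction and side of the threshold, 16 lost a call, 10 gained one and 14 changed sign. Leaving out 1 library in turn gave 12 to 17 members lower and 5 to 8 higher, 3 to 6 mitochondrial enzymes higher (3 without control replicate 1), and medians of -0.21 to -0.12 for cytosolic and -0.17 to -0.082 for mitochondrial enzymes. With library size alone these medians were -0.0088 and -0.00061, at -0.17 and -0.16 from the median of all genes as with TMM factors. With upper-quartile scaling the mitochondrial median was -0.12. The summed cytosolic ratio was 0.835 with upper-quartile scaling and 0.905 with library size alone, where the mitochondrial ratio turned to 1.07.

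Sign changes were in genes not called, with no cause tested. With library size alone Kars was at 0.0029, Farsb at 0.034, Hars2 at 0.018 and Tars2 at 0.075. Among protein-coding genes alone Farsa was at -0.013 and Dars at -0.0085. Without 1 library Farsa ran between -0.025 and 0.053, Dars between -0.0049 and 0.071, Lars between -0.027 and 0.082, Rars between -0.033 and 0.12, and Vars between -0.015 and 0.15.

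Deviations from the group means correlated weakly between same-numbered replicates (0.0764, -0.132 and -0.101 for numbers 1, 2 and 3). Differently numbered pairs ran from -0.118 to 0.193. With 3 libraries per group such values cannot tell whether same-numbered libraries share a mouse or a day, which the labels do not say. With the replicate block 6 members were higher and 14 lower, as Ears2 lost its call. Counts limit Aarsd1, Ears2 and Pars2 most.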
